A study of Hipposideros armiger with 2 samples.

Results

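Liver sinusoidal endothelial cells and Kupffer cells line and patrol the blood channels of the liver, and 10 marker genes of these cells were examined in RNA from the great Himalayan leaf-nosed bat (Hipposideros armiger). The markers were taken by name from the protein matches in the deposited tables, upper-cased, and the values of all assembled genes of 1 name were summed. Of the 10 names, 9 were found among 12783 names in all: CLEC4G, STAB1, STAB2, LYVE1 and FCGR2B for sinusoidal endothelium, and MARCO, CD5L, VSIG4 and TIMD4 for Kupffer cells. No assembled gene had the name CLEC4M, a lectin closely related to CD209, and its level was not analysed here. The set was chosen by name, but selected on measured values too: the ratios of CLEC4G, STAB1, STAB2, MARCO and CD5L between the 2 libraries were known when it was proposed. The differences between libraries are therefore descriptions and carry no test.

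Sinusoidal endothelium is fenestrated, lacks an organised basement membrane, and clears macromolecules from portal blood through scavenger and Fc receptors. Kupffer cells are the resident macrophages of the sinusoids and take up particles, opsonised microbes and dying cells through receptors of other families. Several of these receptors are not particular to liver: LYVE1 is also made by lymphatic endothelium, MARCO by alveolar and splenic macrophages, and FCGR2B by B cells and other leukocytes.

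The data are 2 poly(A)-selected RNA libraries labelled liver, WT genotype and heavy metals exposure, from bats of the CW cave, named here replicate 1 and replicate 2. The design text describes adult males caught with mist nets; the sample labels give sex and age for replicate 2 only. They form 1 group, and the other cave of the study was not analysed here. By its title the study asked how enrichment of metals affects the liver, a question that 1 group without a control cannot answer. The libraries held 18741210 and 18778331 expected counts.

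The libraries stood apart in their content before any marker was considered. Hepatocyte genes, a list of 13 of which 12 were found, came to a summed 10066 TPM (transcripts of each kind per 1e6 transcripts) in replicate 1 but 287 in replicate 2. Albumin (ALB), which hepatocytes secrete into plasma, stood at 7990 and 176 TPM. Alveolar and airway epithelial genes summed to 12088 and 19246 TPM, and SFTPC, surfactant protein C of the alveoli, stood at 2554 and 4047 TPM. Defining hepatocyte transcripts were thus at low levels in the library labelled liver, replicate 2, and lung epithelial transcripts were abundant in both libraries. Their part in the marker values below was not tested. In bulk RNA, fewer cells of a type and less RNA per cell cannot be told apart.

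Sinusoidal endothelial markers had summed levels of 141 TPM in replicate 1 against 58.0 in replicate 2 (mean 99.6 ± 58.8, SD, n = 2), and Kupffer cell markers to 49.8 and 7.01 TPM (28.4 ± 30.3, SD, n = 2). The leading gene changed with the library. CLEC4G made up 42.7% of the endothelial sum in replicate 1, whereas LYVE1 made up 65.4% in replicate 2. In the Kupffer cell sum CD5L led in replicate 1 with 66.9%, and VSIG4 led in replicate 2 with 69.5%. The CD5L level rests on few counts, 42.7 in replicate 1 and 2.0 in replicate 2. The Kupffer cell sum of replicate 1 and its leading gene are therefore uncertain.

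**Figure D1:**
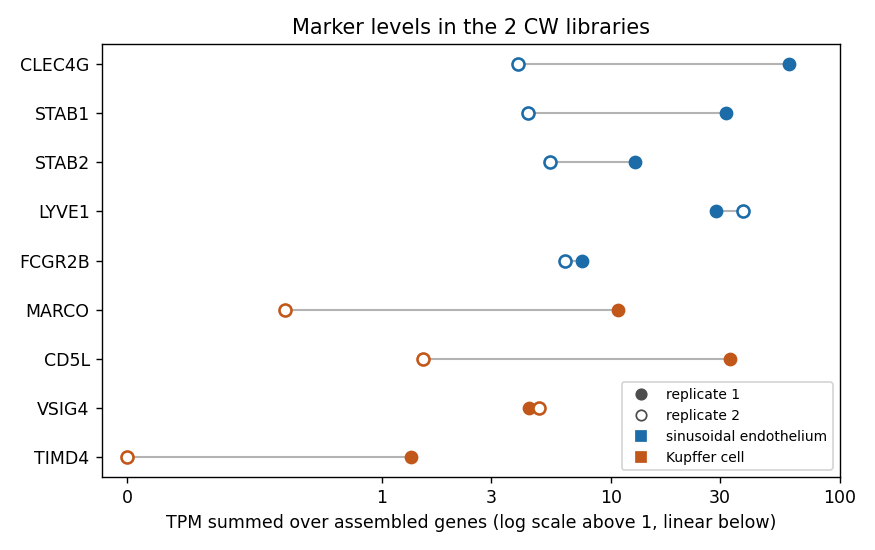
TPM of the 9 markers found, summed over assembled genes of each name, in replicate 1 (filled) and replicate 2 (open), with sinusoidal endothelial markers in blue and Kupffer cell markers in orange; the axis is linear below 1 TPM and logarithmic above. CLEC4G, STAB1, STAB2, MARCO, CD5L and TIMD4 sit lower in replicate 2, while FCGR2B and VSIG4 nearly coincide and LYVE1 is higher, at 28.8 and 38.0 TPM.

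For differences between the libraries, counts summed by name were scaled with TMM factors to counts per 1e6 counts (CPM), and the log2 ratio of replicate 2 over replicate 1 was taken on CPM + 1, less the median of all tested names. Folds between libraries were computed from the same scaled counts without the added 1, with an exact Clopper-Pearson 95% interval that covers counting error only. The 2 scales diverge for low genes, where the added 1 pulls the log2 ratio towards 0. Of 11289 names tested, 583 were over 2-fold lower in replicate 2, which is 5.16%, and 3 were over 2-fold higher, which is 0.0266%. Of the markers, 8 passed the filter of a mean of at least 1 CPM. Among these, 5 were over 2-fold lower in replicate 2, 0 were over 2-fold higher and 3 lay within 2-fold. CD5L, among the 5, passed the filter only through replicate 1 (2.52 CPM, against 0.0969 in replicate 2). Its 2.0 counts in replicate 2 lay under the detection floor of 3 counts. The median log2 ratio of the 8 was -1.43, beside 0 for all names by construction, with quartiles of all names at -0.17 and 0.13. This median lies between the ratios of STAB2 (-1.20) and CD5L (-1.67), so it depends on CD5L.

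**Figure D2:**
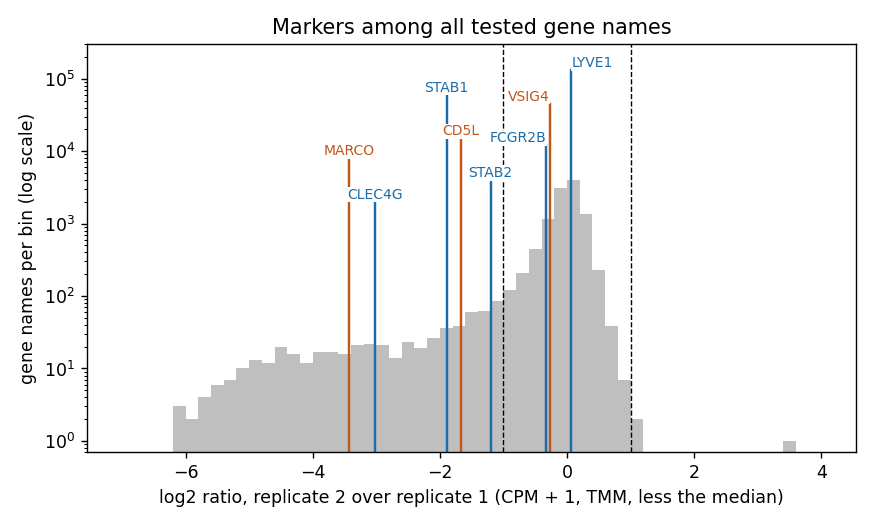
Histogram of the log2 ratio of replicate 2 over replicate 1 for the 11289 tested gene names (gray; vertical axis logarithmic), with the 8 tested markers as lines in blue (sinusoidal endothelium) and orange (Kupffer cells); line heights only separate the labels, and dashed lines mark 2-fold. MARCO at -3.43 and CLEC4G at -3.02 lie far into the lower tail, and LYVE1 at 0.07 lies in the central peak.

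Among the endothelial lectins and scavenger receptors, CLEC4G was the marker with the highest level in replicate 1. CLEC4G, also called LSECtin, is a glycan-binding C-type lectin of sinusoidal endothelium. Its level was 60.4 TPM in replicate 1 against 3.94 in replicate 2, from 700.0 and 85.0 expected counts. Replicate 1 was therefore 9.87-fold higher (interval 7.87 to 12.5), with a log2 ratio of -3.02. Of tested names, 1.75% had a ratio as low. This share carries no test, because the ratio was known when the set was proposed.

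CLEC4G was read from 2 assembled genes that differed in how far the libraries lay apart. The longer, of length 2172 with a human best match and a C-type lectin domain, had 524 and 82.0 counts, a 7.66-fold difference (6.06 to 9.79). The shorter, of length 603 with a mouse best match, had 176 and 3.0 counts, a 70.3-fold difference (23.7 to 344). The shorter assembled gene had the larger fold and 3.0 counts in replicate 2. With the longer assembled gene alone, the log2 ratio of CLEC4G was -2.66.

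The protein name CD209L2, a macaque lectin of the CD209 family to which CLEC4M also belongs, was not among the marker names and was chosen after its values were seen. CD209L2 had 530.0 and 11.0 counts over 2 assembled genes, or 49.0 TPM in replicate 1 against 1.35 in replicate 2. Replicate 1 was 57.8-fold higher (32.0 to 116), with a log2 ratio of -4.37. Whether these assembled genes are the bat counterpart of CLEC4M was not tested.

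Stabilins are large receptors with fasciclin and EGF-like domains that remove modified proteins and matrix fragments from blood. STAB1, which sinusoidal endothelium shares with some macrophages, stood at 31.8 TPM in replicate 1 against 4.34 in replicate 2. Its 924 and 283 counts put replicate 1 3.91-fold higher (3.42 to 4.49), with a log2 ratio of -1.89. STAB2, the hyaluronan clearance receptor of the sinusoids, was at 12.8 and 5.46 TPM from 329 and 160.0 counts. Replicate 1 was 2.47-fold higher for STAB2 (2.035 to 2.997), with a log2 ratio of -1.20, which was -0.96 and within 2-fold under library size scaling. Per length, STAB1 was 2.48 times STAB2 in replicate 1 and 0.795 times STAB2 in replicate 2. The longest assembled genes of STAB1 and STAB2 had 21.6 and 8.63 TPM in replicate 1, and 3.85 and 3.82 TPM in replicate 2. The ratio below 1 in replicate 2 therefore depends on the shorter assembled genes.

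The stabilins were split into pieces by the assembly. STAB1 had 5 assembled genes, the largest of length 7053 with 24 assembled transcripts and a fasciclin domain. That 1 had 896 and 282 counts but 21.6 and 3.85 TPM, so its TPM differed by a larger factor than its counts. The other 4 pieces of STAB1, of lengths 305 to 521, held 28 counts and 10.1 TPM together in replicate 1, and 1 count and 0.49 TPM in replicate 2. STAB2 had 4 assembled genes. Its largest, of length 3547, had 306 and 143 counts, while a piece of length 1067 with a fasciclin domain had 12 and 15.3 counts and a fold of 0.959 (0.410 to 2.20). The remaining pieces were lower in replicate 2 at few counts: that of length 282 had 5.0 and 1.0 counts (2.89 and 0.65 TPM), and that of length 616 had 6.0 and 1.0 counts (0.70 and 0.13 TPM). Most STAB2 counts came from the piece of length 3547.

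LYVE1 and FCGR2B lay within 2-fold between the libraries. LYVE1, a hyaluronan receptor with a link domain, had 28.8 TPM in replicate 1 against 38.0 in replicate 2 (33.4 ± 6.5, SD, n = 2). Its 1442 and 1815 counts came from 1 assembled gene with a cattle best match, and the fold of replicate 2 over replicate 1 was 1.05 (0.979 to 1.13). The log2 ratio was 0.07. LYVE1 had the highest count of the markers, so this is the most precise of their ratios.

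FCGR2B, the inhibitory low-affinity receptor for IgG that clears small immune complexes in the sinusoids, was at 7.47 and 6.35 TPM (6.91 ± 0.79, SD, n = 2) from 130.0 and 120.0 counts. The log2 ratio was -0.33 and replicate 1 was 1.30-fold higher (1.01 to 1.68). A further assembled gene of the same Trinity component has the name FCGR2 with a cattle best match, and it was not among the marker names. FCGR2 had 13.6 TPM in replicate 1 against 0.42 in replicate 2, from 248 and 4.0 counts. That is a 74.3-fold difference (28.7 to 275), and the log2 ratio of FCGR2 was -3.69. FCGR2 held 65.6% of the 378 counts of both names in replicate 1 and 3.23% of the 124 in replicate 2.

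Summed over FCGR2B and FCGR2, replicate 1 was 3.66-fold higher (2.98 to 4.51), with a log2 ratio of -1.71. The call of FCGR2B as within 2-fold therefore holds for the assembled gene of that name and not for the sum of both. FCGR2 and FCGR3 were chosen after their values were seen. Fc receptor genes are near-identical in part, and reads may be split between these assembled genes. The activating receptor name FCGR3 had an assembled gene of length 2167 in a neighbouring part of the component, at 225 and 328 counts, which is a fold of 0.823 of replicate 1 over replicate 2 (0.691 to 0.978).

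**Figure D3:**
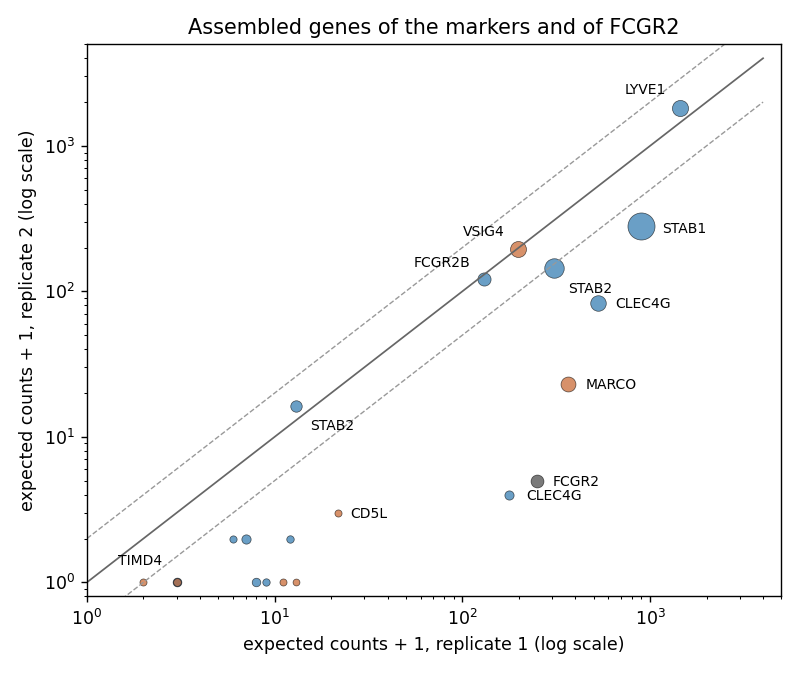
Expected counts + 1 of the 20 assembled genes of the markers and of the 1 named FCGR2 (gray) in replicate 1 against replicate 2, on log axes; blue is sinusoidal endothelium, orange is Kupffer cells, point area grows with assembled length, the solid line is equality and dashed lines are 2-fold, all before scaling. FCGR2B and FCGR2 lie far apart at 120.0 and 4.0 counts in replicate 2, and the short pieces lie along the bottom.

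Kupffer cell markers also divided into low and similar genes. MARCO, a class A scavenger receptor that binds bacteria and particles, stood at 10.8 TPM in replicate 1 against 0.62 in replicate 2. It had 1 assembled gene of length 1972 with 366 and 22.0 counts, so that replicate 1 was 19.9-fold higher (13.0 to 32.2). The log2 ratio on CPM + 1 was -3.43, and 1.35% of tested names had a ratio as low. That ratio was also known when the set was proposed. CD5L, a secreted scavenger receptor cysteine-rich protein of tissue macrophages, was at 33.3 and 1.52 TPM.

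The TPM of CD5L rest on few reads. Its 3 assembled genes have lengths of 231, 259 and 266, and they held 42.7 counts in replicate 1 and 2.0 in replicate 2. The fold was 25.8 with a wide interval (6.72 to 219.7), and the log2 ratio was -1.67 because both values lie near the added 1 CPM. CD5L ranks above STAB1 and MARCO by TPM in replicate 1 but has fewer counts than either. Its place in the order of levels is therefore uncertain.

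VSIG4, the complement receptor of Kupffer cells that binds C3b-coated particles, had 4.39 TPM in replicate 1 against 4.87 in replicate 2 (4.63 ± 0.34, SD, n = 2). It had 198 and 193 counts in 1 assembled gene of length 2298, with a log2 ratio of -0.27 and a fold of replicate 1 over replicate 2 of 1.23 (1.00 to 1.51). The TPM and the scaled counts differ in sign here. The median name was 0.33 higher in replicate 2 on log2(TPM + 1), and less that median the log2 ratio of VSIG4 on TPM was -0.21. TIMD4, a phosphatidylserine receptor of resident macrophages, had 3.0 counts in replicate 1 and 0.0 in replicate 2. A count of 3 was the detection floor (0.176 CPM in replicate 1 and 0.145 CPM in replicate 2), so TIMD4 was not measurable at this depth and no fold is given.

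Between markers, the order of levels per length was CLEC4G, CD5L, STAB1, LYVE1, STAB2, MARCO, FCGR2B, VSIG4 and TIMD4 in replicate 1. In replicate 2 it was LYVE1, FCGR2B, STAB2, VSIG4, STAB1, CLEC4G, CD5L, MARCO and TIMD4. By the mean of both libraries LYVE1 (33.4 ± 6.5 TPM) came first and CLEC4G (32.2 ± 39.9 TPM) second, with overlapping spreads. Within each library they differed: CLEC4G was 2.10 times LYVE1 in replicate 1 and 0.104 times in replicate 2. Spreads over libraries do not use the pairing of genes within a library. STAB1 (18.1 ± 19.4), CD5L (17.4 ± 22.5), STAB2 (9.14 ± 5.2), FCGR2B (6.91 ± 0.79) and MARCO (5.69 ± 7.17 TPM) followed, and each pair of neighbours overlapped within 1 SD. VSIG4 at 4.63 ± 0.34 TPM overlapped with MARCO above it. Across all names, LYVE1 ranked 2024 and VSIG4 9485 of 12783 by mean TPM.

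Set against a marker of all endothelium, CLEC4G and the stabilins were low in replicate 2, and FCGR2B and LYVE1 were lower by smaller factors. Per length, CLEC4G was at 1.59 times PECAM1, an adhesion molecule of all endothelium, in replicate 1 and 0.0715 times in replicate 2. STAB1 went from 0.835 to 0.0787 times PECAM1 and STAB2 from 0.337 to 0.0990 times, whereas FCGR2B was at 0.196 and 0.115 times and LYVE1 at 0.757 and 0.688 times. Relative to CD68, a lysosomal protein of macrophages in general, MARCO was at 0.459 times in replicate 1 and 0.0185 times in replicate 2, CD5L at 1.42 and 0.0455 times, and VSIG4 at 0.187 and 0.146 times. The CD5L values rest on few counts. PECAM1 and CD68 were chosen for this after their values were seen. Their log2 ratios between libraries were 0.17 and 0.09.

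Other genes of sinusoidal endothelium likewise included both low and similar genes. Of 18 listed, 12 were found and 9 tested. Of these 9, 4 were over 2-fold lower in replicate 2, beside 5.16% of all names, and 0 were over 2-fold higher. The median log2 ratio was -0.64, beside 0 for all names. DNASE1L3, a secreted nuclease that digests circulating chromatin, was at 53.7 and 0.94 TPM with a log2 ratio of -4.50. FCN2, a soluble lectin of complement activation, was at 23.0 and 6.41 TPM from 115 and 16.7 counts (-2.08). GATA4, the transcription factor that specifies sinusoidal over continuous endothelium, had 61.0 and 2.0 counts (-2.05), and OIT3 had 54.0 and 15.0 counts (-1.26). Which cells made the transcripts of these 4 genes was not tested.

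The remaining tested genes of that list were within 2-fold. F8, clotting factor VIII, was at 46.8 and 77.2 TPM with a log2 ratio of 0.29, and the mannose receptor MRC1 at 16.3 and 21.5 TPM with -0.28. Neither is particular to liver sinusoids. MAF, a transcription factor of sinusoidal cells and macrophages, had a log2 ratio of -0.64, and the receptor GPR182 one of -0.07. OIT3, MAF and GPR182 were named after their values were seen.

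Of 18 other Kupffer cell genes, 17 were found and 16 tested. Among the 16, 3 were over 2-fold lower in replicate 2, beside 5.16% of all names, and 0 were over 2-fold higher. Their median log2 ratio was -0.07. HMOX1, the heme-degrading enzyme, was at 9.86 and 0.72 TPM (-2.15). NR1H3, the liver X receptor alpha that takes part in Kupffer cell identity and is also made by hepatocytes, had 328 and 127 counts (-1.49). The subunits of complement C1q, which most tissue macrophages make, were within 2-fold: C1QC was at 91.6 and 129 TPM (-0.06), with C1QA at -0.10 and C1QB at -0.14. CD163 (-0.17), FOLR2 (-0.18) and CLEC4F (-0.07) were also within 2-fold. Outside the rule for named genes, C1QA, C1QB, CD163, FOLR2 and CLEC4F were chosen after their values were seen.

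Lists of endothelium and macrophages at large stayed near the median of all names. General endothelium had 0 of 15 tested genes over 2-fold lower or higher and a median log2 ratio of 0.13, led by EGFL7 at 110 and 159 TPM. Lung capillary and alveolar endothelium had 0 of 9 and a median of 0.15, with PRX at 59.9 and 98.0 TPM and CA4, a carbonic anhydrase of lung capillaries, at 51.7 and 75.6 TPM. General macrophage genes had 0 of 10 and a median of 0.03, led by LYZ at 248 and 358 TPM. Alveolar macrophage genes had 0 of 6 and a median of 0.09, led by the lipid-binding protein FABP4 at 172 and 258 TPM.

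Lymphatic endothelial genes, which share LYVE1 with the sinusoids, had 1 of 6 over 2-fold lower, beside 5.16% of all names, and a median of -0.38. The gene past 2-fold was PROX1, a transcription factor of lymphatic endothelium that hepatocytes also make, with 124 and 44.0 counts (-1.39). CCL21, a chemokine of lymphatic endothelium, was at 137 and 143 TPM (-0.28), and PDPN, shared with alveolar type I cells, at 37.5 and 54.1 TPM (0.07). Each of the 12 hepatocyte genes tested lay below the 2-fold limit in replicate 2, and their median was -4.35. The sinusoidal endothelial markers had a median of -1.20 (5 tested) and the Kupffer cell markers one of -1.67 (3 tested). Both medians lay between those of the hepatocyte list and of general endothelium or macrophages. The Kupffer cell median is the value of CD5L itself, which rests on 42.7 and 2.0 counts and lay below the detection floor in replicate 2. With a pseudocount of 0.1 the log2 ratio of CD5L was -3.72, so the place of this median is uncertain. The ratios of CLEC4G, STAB1, STAB2, MARCO and CD5L were known when the set was proposed, so this order carries no test. B cell and splenic genes, which could bring FCGR2B or MARCO, had 2 of 5 names found and summed to 11.1 and 9.07 TPM.

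**Figure D4:**
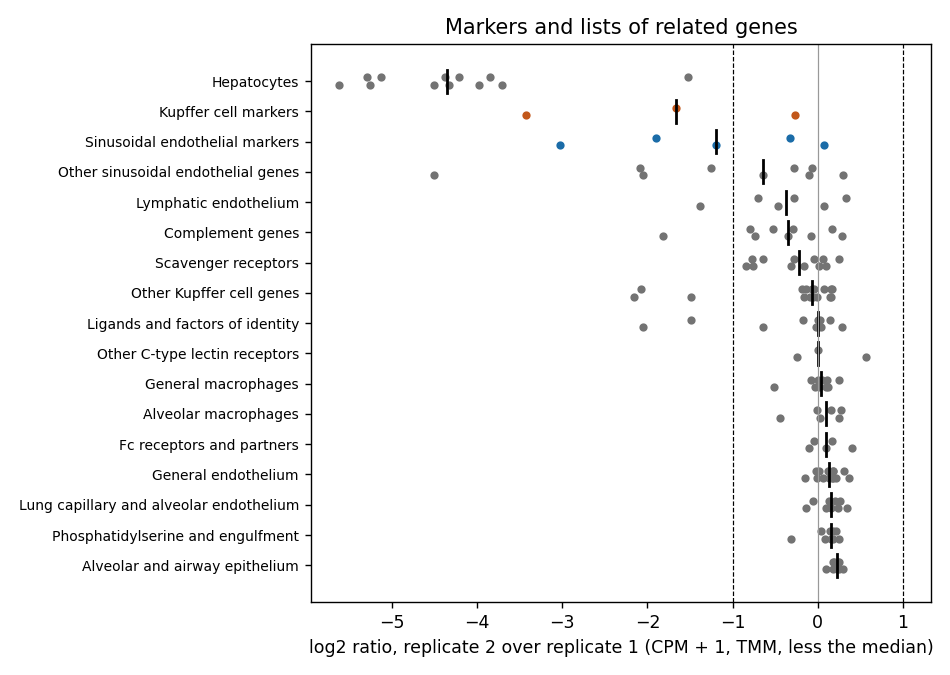
Log2 ratio of replicate 2 over replicate 1 for each tested gene of the marker groups (blue and orange) and of 15 lists of related genes (gray), ordered by their medians (black bars); dashed lines mark 2-fold. The hepatocyte list with a median of -4.35 lies lowest, the marker groups come next, and general endothelium and macrophages lie at 0.13 and 0.03. The place of the marker groups carries no test, because ratios of some markers were known when they were chosen. The Kupffer cell median is the value of CD5L, which had 2.0 counts in replicate 2.

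The names most like the leading marker of each group, by mean TPM, were found by Euclidean distance in log2(CPM + 1) of the 2 libraries. Only names on the same side of 2-fold as the marker were compared. For LYVE1, at 84.6 and 87.9 CPM, the 3 nearest names were RAD21 (83.8 and 88.0 CPM), C21ORF59 (84.9 and 89.2) and TOP2B (84.0 and 89.2). For CD5L, at 2.52 and 0.0969 CPM, they were PGC (2.46 and 0.0484), C1RA (2.70 and 0.0969) and C19ORF12 (2.29 and 0.0969). In replicate 2, CD5L and these names lay below the detection floor of 0.145 CPM. With 2 libraries, this measure compares 2 values per gene.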

How the data were processed

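Both libraries were trimmed with cutadapt 1.9, per the submitters' processing notes, which list the mm10 build for replicate 1 with no role. The features are assembled Trinity clusters named by protein match, per the file headers; the sources used here give no quantifier. The deposited expected counts were rounded to whole numbers per assembled gene. Another column, with no unit in its header, was taken as TPM computed by the authors before deposit because its sums were 996837 and 996239. Assembled genes without a name held 8.70% and 9.69% of counts and stayed in library sizes. TMM factors (0.910 and 1.10) came from edgeR 4.0.16 in R 4.3.3; other steps ran in Python 3.11.15 (pandas 2.3.3, numpy 2.4.6, scipy 1.17.1). The procedure was tested on simulated counts.

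The members and lists were chosen with earlier results of these data known. Named genes are all markers, up to 3 highest and 2 lowest-ratio genes of each list, and the 3 nearest names to the marker with the highest mean TPM of each cell class; other names are said to be chosen after their values were seen. Not every gene taken by this rule is reported. Of the 10 markers, 9 have a symbol in the RefSeq table of the bat assembly ASM189008v1. With 1 library against 1 library no p-value was computed. Whether the libraries come from separate animals rests on the design text. Without molecular identifiers, reads are not independent molecules, so intervals and floors cover counting error only. Alternatives were other pseudocounts, filters, scalings (including DESeq2 1.42.0 size factors), single rows per name, rows with a vertebrate match, and each replicate alone.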

Additional observations from a re-analysis of the deposited data

How the results depend on the processing

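The number of names over 2-fold lower in replicate 2 was 583 of 11289 tested (5.16%). With the filter raised to 10 CPM, which tests fewer names, it was 343 of 7555 (4.54%). On TPM with a pseudocount of 1 it was 951 of 12326 (7.72%), and 171 were over 2-fold higher. The cause of these TPM counts was not tested. Under the other settings the number lay between 496 and 661 (4.39% to 5.86% of names tested). The count of markers over 2-fold lower was 5 of 8 tested. It lay between 4 and 6 under its alternatives, which tested 6 to 9 markers. With library size scaling, under which the median of all names was 0.24, STAB2 was at -0.96 and left the count. CD5L left it at a mean of at least 10 CPM and with only the highest row of each name, where it is no longer tested. Adding FCGR2 to FCGR2B, chosen after seeing the data, brought FCGR2B in. CLEC4G, STAB1 and MARCO were over 2-fold lower under every setting run, with log2 ratios from -3.97 to -2.66, -2.95 to -1.65 and -4.19 to -3.19. Without each replicate in turn, the summed TPM ranged from 58.0 to 141 for sinusoidal endothelial and from 7.01 to 49.8 for Kupffer cell markers. No paired analysis was possible because both libraries belong to 1 group. Depth limits CD5L and TIMD4, and the spread between animals is unknown.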

Other observations

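Systems that the markers work with were also measured. Of 9 tested genes for phosphatidylserine recognition and engulfment other than the stabilins, 0 were over 2-fold lower or higher, with a median log2 ratio of 0.16; the bridging protein MFGE8 was at 286 and 430 TPM (5.16% of all names were over 2-fold lower). Of 12 scavenger receptors other than the markers, such as MARCO and the stabilins, 0 were over 2-fold lower or higher, with a median of -0.22, and the lowest ratio was that of SCARB1, the high-density lipoprotein receptor, at 87.3 and 30.7 TPM (-0.85). Of 9 tested complement genes, 1 was over 2-fold lower, with a median of -0.35: CFB, a factor of the alternative pathway, at 68.6 and 21.1 TPM (-1.82). C3, whose fragments VSIG4 binds, was at 1085 and 682 TPM (-0.74). Fc receptors and partners, a list that does not hold FCGR2B or the low FCGR2, had 0 of 5 over 2-fold lower or higher and a median of 0.10, led by PIGR, the epithelial antibody transporter, at 148 and 212 TPM. Among 11 tested ligands and transcription factors of sinusoidal and Kupffer cell identity, 2 were over 2-fold lower, GATA4 and NR1H3. Both were already counted above, GATA4 among other sinusoidal endothelial genes and NR1H3 among other Kupffer cell genes. The median of the 11 was 0.00, and the macrophage growth factor CSF1 was at 29.0 and 39.1 TPM. Of a list of C-type lectin receptors that does not hold CLEC4G or the low CD209L2 (-4.37), the 3 tested, CLEC7A, CLEC4E and CLEC12A, were within 2-fold, with log2 ratios of 0.57, 0.01 and -0.24.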
